A study of Mus musculus with 4 samples.

Results

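The cytosolic and mitochondrial heat shock proteins examined here were 10 genes chosen by symbol, namely Hspa1a, Hspa1b, Hspa8, Hsph1, Hsp90aa1, Hspb1, Dnajb1, Bag3, Hspd1 and Hspe1, out of 54446 genes in the deposited expression table. All 10 were found, and all 10 had an expression value above 0 in every library. RNA was sequenced from mammary cells of C57BL/6 wild type mice, sorted by flow cytometry into basal and luminal cells and grown in 3D in growth factor-reduced Matrigel, a gel of basement membrane proteins. Cells of each label received DMSO, the solvent control, or 100 μM baicalin, a flavonoid of Scutellaria root, which gave 4 libraries and 1 library per group. The study's methods name young virgin female mice, or females at other stages, as the source of primary cells. For these libraries the labels give no age or stage, and neither whether cells of several animals were pooled nor the time in culture.

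Heat shock proteins are molecular chaperones that hold, fold or refold other proteins. HSP70 proteins bind unfolded stretches in an ATP-driven cycle, J proteins such as Dnajb1 load them, and HSP110 and BAG proteins release them by exchanging the bound nucleotide. HSP90 matures client proteins such as kinases and steroid hormone receptors, small heat shock proteins keep unfolded protein soluble without ATP, and HSP60 with its lid HSP10 folds proteins in the mitochondrial matrix. Heat, oxidants and misfolded protein release heat shock factor 1, which binds repeats of the letters GAA and TTC in the promoters of many of these genes and raises their transcription.

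The promoters show how closely some of the members are related. Of the 10 members, 8 had a stretch of 300 bases (250 before and 50 after the start) in the RefSeq promoter table of GRCm38.p6, in 11 windows. Hspa1a and Hspa1b encode nearly the same inducible HSP70. Their upstream stretches, shown because the transcripts of the pair are also nearly identical, differed at 3 of 250 bases. Capitals mark GAANNTTC, a facing pair of the repeat unit. The Hspa1a stretch lies at chr17:34972157-34972406 and the Hspa1b stretch at chr17:34959239-34959488, both on the minus strand and outside annotated exons.
Hspa1a: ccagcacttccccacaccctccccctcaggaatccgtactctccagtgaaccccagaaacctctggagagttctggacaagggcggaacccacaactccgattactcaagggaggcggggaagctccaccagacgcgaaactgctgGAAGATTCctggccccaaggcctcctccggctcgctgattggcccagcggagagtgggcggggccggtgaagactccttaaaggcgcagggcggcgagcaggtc
Hspa1b: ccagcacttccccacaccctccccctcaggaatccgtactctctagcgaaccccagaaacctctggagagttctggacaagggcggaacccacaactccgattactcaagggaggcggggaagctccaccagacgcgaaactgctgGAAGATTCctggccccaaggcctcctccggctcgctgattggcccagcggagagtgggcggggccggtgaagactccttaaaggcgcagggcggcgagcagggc

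Hspd1 and Hspe1, for HSP60 and HSP10, sit head to head on chromosome 1 and share 1 promoter region. The same 30 bases at chr1:55088053-55088082 lie before the RefSeq start of Hspe1 on the plus strand. Read from the minus strand, they lie before the RefSeq start of Hspd1. They also lie in an annotated exon and inside the wider bounds of Hspd1 given below, chr1:55077835-55088243. Capitals mark a run of repeat units in alternating direction, and the line is written on the plus strand.
Hspe1 and Hspd1: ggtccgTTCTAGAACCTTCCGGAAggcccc

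The next stretches are from Hsph1, Hspb1 and Bag3. These genes differed between the cell labels in their values with baicalin, and their windows held pairs of the repeat unit. Dnajb1 differed as well, but its window held no such pair in either order, so it has no stretch to show. The Hsph1 stretch is at chr5:149636287-149636316 on the minus strand and the Bag3 stretch at chr7:128523603-128523632 on the plus strand, each after the start and at least in part in an exon. The Hspb1 stretch is at chr5:135887796-135887835 on the plus strand, before the start and outside exons. Capitals again mark the repeat units.
Hsph1: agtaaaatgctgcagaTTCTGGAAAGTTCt
Hspb1: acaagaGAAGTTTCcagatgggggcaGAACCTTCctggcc
Bag3: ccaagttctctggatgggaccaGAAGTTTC

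The letters GAANNTTC were found in the windows of 7 of the 8 members, the exception being Dnajb1, and in 7.86% of the 32851 promoter windows of the table. The reverse order TTCNNGAA was found for 3 members and in 8.52% of windows, and 15.1% of windows held one or the other. The longer form GAANNTTCNNGAA, searched on both strands and always containing both shorter forms, was found in the windows of Hspd1, Hspe1 and Hsph1 and in 0.603% of windows. A match is a description of these letters and not a binding site.

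The 4 libraries held between 19356159 and 20648820 counted fragments, recovered from the deposited FPKM (fragments per kilobase of exon, scaled to library depth) and the exon lengths. Between 0.599 and 11.2 FPKM in each library came from markers of immune cells, endothelial cells or fibroblasts, summed per list. The markers of the mammary layers went against the labels. All 10 basal markers, such as Krt5, Krt14 and Acta2, were higher in the luminal-labelled than in the basal-labelled library, both with DMSO and with baicalin, and their summed FPKM was 1761 and 479 in the basal-labelled libraries with DMSO and baicalin and 5404 and 7199 in the luminal-labelled ones. Of the 10 luminal markers, 3 were higher in the luminal-labelled library with DMSO and 1 with baicalin, and their sums were 4011, 2476, 1305 and 1007 FPKM in the same order. No marker of either layer was at 0, while 1 to 3 of the 7 immune markers were, depending on the library. Groups are therefore called by their labels, and the part of these marker differences in the results was not tested. In bulk RNA, fewer cells of a type and less RNA per cell cannot be told apart.

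Most members were abundant, and 6 of the 10 (Hspa1b, Hspa8, Hsp90aa1, Hspb1, Hspd1 and Hspe1) stood above at least 94.4% of the detected coding genes in every library. Hspa1a was at the 67.2nd percentile of these genes in the basal-labelled DMSO library and Hsph1 at the 69.5th in the luminal-labelled DMSO library. Together the 10 they took 0.537% of the summed FPKM in the basal-labelled DMSO library, 0.451% in the basal-labelled baicalin library, 0.393% in the luminal-labelled DMSO library and 0.391% in the luminal-labelled baicalin library. Hspa8, the constitutive HSP70, was the highest member in each, followed by Hsp90aa1. The inducible Hspa1a and the HSP110 gene Hsph1 were among the lowest. FPKM is scaled by the summed length of all annotated exons of a gene, so these levels compare only roughly between genes. The places of Hspa1a and Hspa1b also rest on how reads that fit both were divided.

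With DMSO in the basal-labelled library the order ran Hspa8, Hsp90aa1, Hspd1, Hspb1, Hspe1, Hspa1b, Hsph1, Bag3, Dnajb1 and Hspa1a, from 572 to 11.2 FPKM. In that library Bag3 and Dnajb1 were the only neighbours whose 95% counting intervals overlapped. With baicalin Hsph1 stood below both of them, at 20.1 FPKM, and the overlapping neighbours were Bag3 with Dnajb1 and Dnajb1 with Hsph1. In the luminal-labelled DMSO library Hsp90aa1 and Hspd1 overlapped, as did Hspb1, Hspe1 and Hspa1b, and Hsph1 was last at 11.7 FPKM. In the luminal-labelled baicalin library Hspb1 followed Hsp90aa1 and stood above Hspd1, and the overlapping neighbours were Hspa1b with Hspe1, Dnajb1 with Bag3 and Hspa1a with Hsph1. These intervals, as all intervals given here, cover counting error only and not the spread between cultures, for which there are no replicates.

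**Figure D1:**
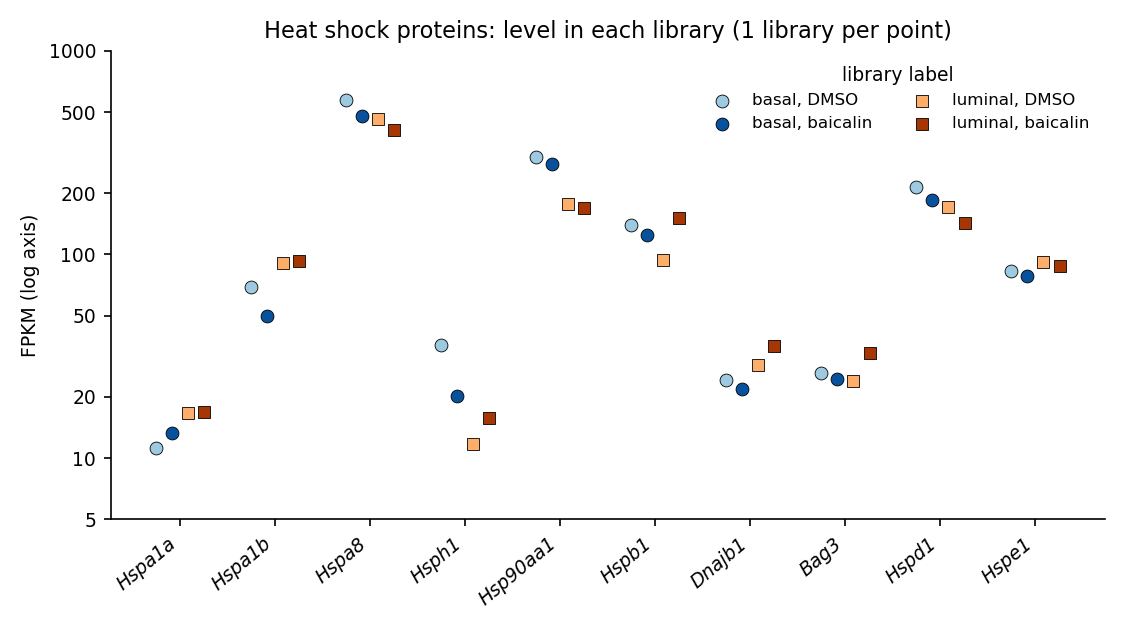
FPKM of each of the 10 heat shock genes (x axis) on a log axis (y axis), 1 point per library, with circles for the basal label, squares for the luminal label and darker fill for baicalin. Hspa8 was highest in all 4 libraries, at 409.5 to 572 FPKM, and the 4 points of Hsph1 were the most widely spread, from 11.7 to 35.8 FPKM.

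The first comparison asked how baicalin altered gene expression in cells labelled basal, and no member of the heat shock group passed the threshold of 1 on the log2(FPKM + 1) scale. Of the 10 members, 9 were lower with baicalin than with DMSO and 1, Hspa1a, was higher. The lowest value was that of Hsph1. The threshold was passed upward by 2.15% and downward by 3.33% of the 17787 genes detected (FPKM above 0) in every library. The members' median log2 change was −0.15, beside 0.01 over all those genes, of which 50.9% were higher with baicalin. With 1 library per group no test between conditions was made.

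The inducible HSP70 genes differed in level. Hspa1b, at chr17:34956436-34959238 on the minus strand, had an FPKM of 69.4 with DMSO and 49.99 with baicalin in the basal-labelled libraries, and of 90.7 and 92.8 in the luminal-labelled ones. The ratio of baicalin to DMSO was 0.720 (95% interval 0.686 to 0.756) for the basal label and 1.02 (0.984 to 1.06) for the luminal label. Hspa1b was thus lower with baicalin under the basal label, with a log2 change of −0.47, while its interval under the luminal label took in 1.

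Hspa1a, at chr17:34969190-34972156 on the minus strand, had 11.2 FPKM with DMSO and 13.3 with baicalin under the basal label, and 16.7 and 16.8 under the luminal label. Its ratios were 1.19 (1.07 to 1.32) and 1.01 (0.922 to 1.10). The transcripts of the pair match over 2201 bases at 99.2% identity, and how reads that fit both genes were counted is not given in the sources used here, so the division between them is uncertain. The ratio of Hspa1b to Hspa1a was 6.18, 3.75, 5.43 and 5.51 in the libraries labelled basal with DMSO, basal with baicalin, luminal with DMSO and luminal with baicalin.

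Summed, which does not rest on that division, the pair had 80.7 FPKM with DMSO and 63.3 with baicalin in the basal-labelled libraries and 107 and 109.6 in the luminal-labelled ones. The ratio of their fragments was 0.788 (0.754 to 0.824) under the basal label and 1.02 (0.985 to 1.06) under the luminal label. The sum was highest in both luminal-labelled libraries and lowest in the basal-labelled baicalin library.

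Hspa8, the constitutive HSC70, at chr9:40800984-40810087 on the plus strand, had 572 FPKM with DMSO and 476 with baicalin under the basal label and 460.1 and 409.5 under the luminal label. Its ratios were 0.832 (0.821 to 0.843) and 0.890 (0.877 to 0.903), lower with baicalin under both labels. A further 9 near-identical copies of Hspa8 are annotated, and the highest, Gm15459, reached 14.7 FPKM. The copies together held between 2.055% and 3.92% of the FPKM of the gene and its copies. Counted in the same way, copies of Hsp90aa1 held at most 1.77% and those of Hspb1 at most 1.3%.

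Among the genes that drive the HSP70 cycle, Hsph1 encodes HSP110, which releases the nucleotide of HSP70, and lies at chr5:149614287-149636376 on the minus strand. It had 35.8 FPKM with DMSO and 20.1 with baicalin in the basal-labelled libraries, and 11.7 and 15.7 in the luminal-labelled ones. Both basal-labelled values were above both luminal-labelled ones. The ratio of baicalin to DMSO was 0.561 (0.536 to 0.587) under the basal label and 1.34 (1.26 to 1.43) under the luminal label, with log2 changes of −0.80 and 0.39. No near-identical copy of Hsph1 was found.

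Dnajb1, a J protein that loads HSP70, at chr8:83608193-83612653 on the plus strand, had 24.3 FPKM with DMSO and 21.97 with baicalin under the basal label and 28.5 and 35.5 under the luminal label. The ratios were 0.904 (0.840 to 0.972) and 1.24 (1.17 to 1.32). Bag3, which exchanges the nucleotide of HSP70 and ties it to small heat shock proteins and autophagy, lies at chr7:128523616-128546981 on the plus strand. It had 26.2, 24.4, 24.0 and 32.7 FPKM in the libraries labelled basal with DMSO, basal with baicalin, luminal with DMSO and luminal with baicalin. Bag3 thus had nearly the same level in 3 libraries and was highest in the luminal-labelled baicalin library. Its ratio was 0.932 (0.862 to 1.01) under the basal label, which takes in 1, and 1.36 (1.27 to 1.47) under the luminal label.

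Hspb1, the small heat shock protein HSP27 (HSP25 in the mouse), at chr5:135887919-135889563 on the plus strand, had 139.5 FPKM with DMSO and 125 with baicalin under the basal label and 93.8 and 151 under the luminal label. The luminal-labelled libraries held both its lowest and its highest value. The ratio was 0.896 (0.849 to 0.945) under the basal label and 1.61 (1.52 to 1.71) under the luminal label, where the log2 change of 0.68 was the highest of the 10 members.

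Hsp90aa1, the inducible cytosolic HSP90, at chr12:110690605-110702728 on the minus strand, followed the label more than the treatment. It had 299.5 FPKM with DMSO and 276 with baicalin under the basal label and 177 and 169 under the luminal label. The ratios of baicalin to DMSO were 0.923 (0.906 to 0.940) and 0.956 (0.934 to 0.980). Both basal-labelled values were well above both luminal-labelled ones.

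Of the mitochondrial pair, only Hspd1 differed between treatments beyond counting error. Hspd1, the HSP60 gene at chr1:55077835-55088243 on the minus strand, had 215 FPKM with DMSO and 184 with baicalin under the basal label and 171 and 143 under the luminal label, with ratios of 0.856 (0.833 to 0.879) and 0.837 (0.812 to 0.864). Hspe1, the HSP10 gene at chr1:55088132-55091307 on the plus strand, had 82.6, 78.1, 91.4 and 88.2 FPKM in the same order, with ratios of 0.945 (0.893 to 1.001) and 0.965 (0.914 to 1.02). Hspd1 was lower with baicalin under both labels, while both intervals of Hspe1 took in 1. A near-identical copy of Hspd1, Hspd1-ps3, held between 4.02% and 4.99% of the FPKM of the gene and its copy. The genes share the promoter stretch printed above and 112 exon bases on opposite strands, and whether the counting used strand is not given, so reads there cannot be assigned to one of them.

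**Figure D2:**
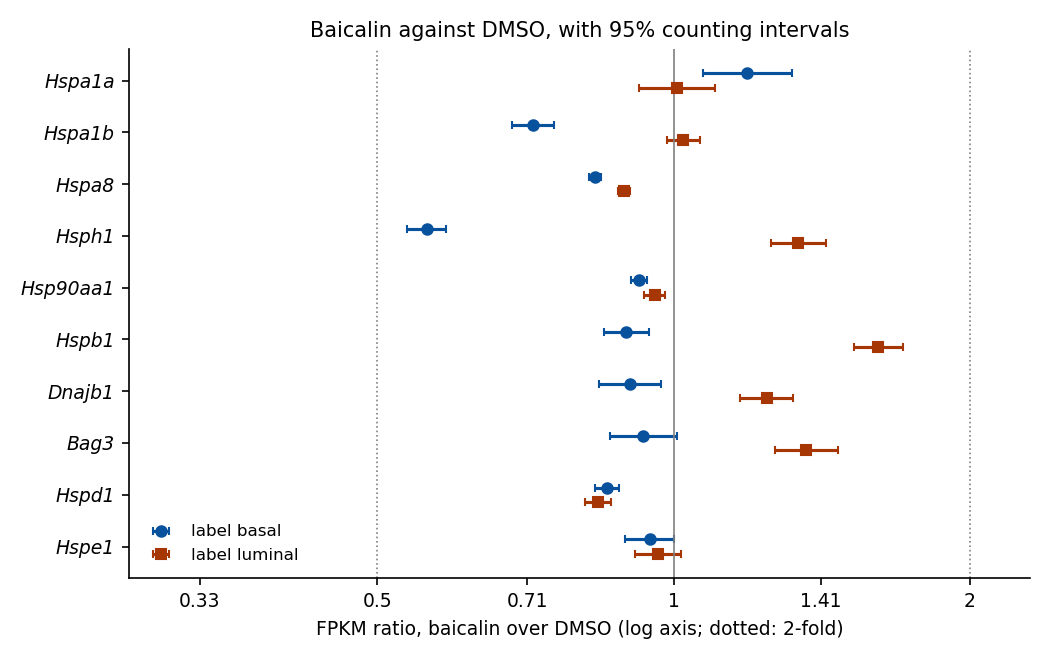
Ratio of FPKM with baicalin to FPKM with DMSO (x axis, log scale) for the 10 genes (y axis), with circles for the basal label, squares for the luminal label and bars for 95% intervals of counting error. All points lie between the dotted lines of a 2-fold difference. For Hsph1, Hspb1 and Dnajb1 both intervals are clear of 1, left of it under the basal label and right under the luminal label. Hspa1b and Bag3 also have points on either side of 1, but the luminal interval of Hspa1b and the basal interval of Bag3 take in 1.

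In the luminal-labelled libraries the same comparison, baicalin against DMSO, also left no member past the threshold, beside 2.37% of all genes upward and 1.59% downward. Here 6 members were higher with baicalin and 4 were lower. The median log2 change was 0.02, beside −0.02 over all genes, of which 45.6% were higher. The members with the higher values were Hspb1, Bag3, Hsph1 and Dnajb1, while Hspa8, Hsp90aa1, Hspd1 and Hspe1 were below their DMSO levels.

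Among the 9154 of these genes that reached 5 FPKM in some library, a set closer to the members in expression, the lower and upper quartiles of the log2 change were −0.25 and 0.25 under the basal label and −0.24 and 0.20 under the luminal label. Under the basal label Hsph1, Hspa1b and Hspa8 lay below the lower quartile, at −0.80, −0.47 and −0.26, and no member lay above the upper one. Under the luminal label Hspb1, Bag3, Hsph1 and Dnajb1 lay above the upper quartile, at 0.68, 0.43, 0.39 and 0.31, and Hspd1 lay below the lower one at −0.25.

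**Figure D3:**
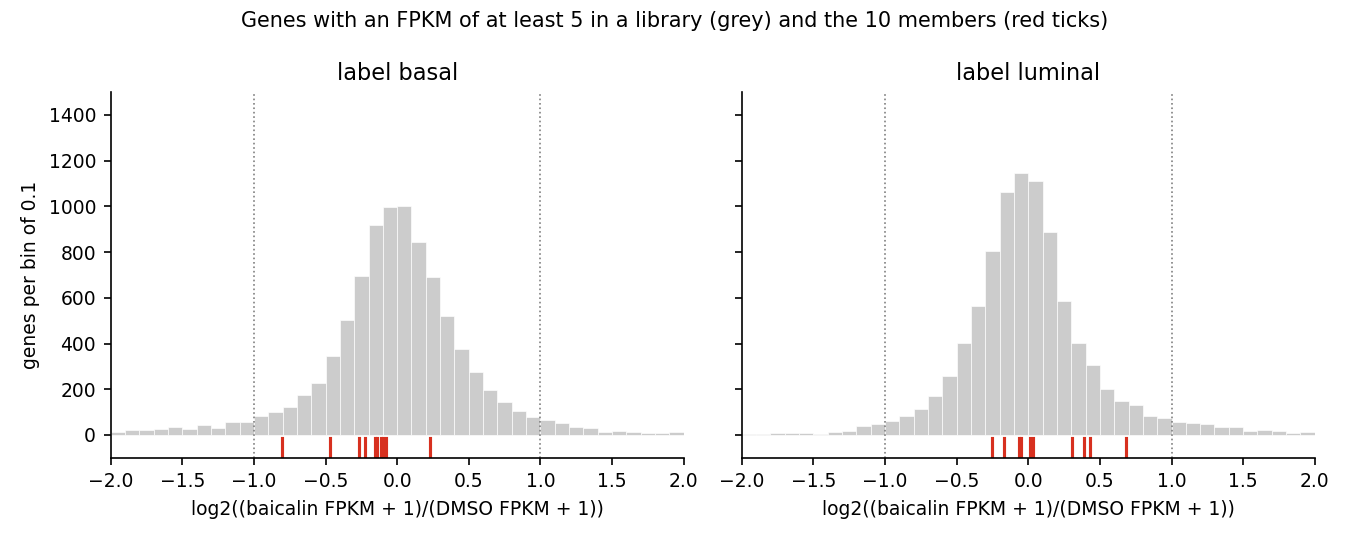
Number of genes per bin of 0.1 (y axis) by log2 change with baicalin (x axis) for the genes that reached 5 FPKM in some library, for the basal label (left) and the luminal label (right), with red ticks for the 10 heat shock genes and dotted lines at the threshold. All 10 ticks lie within the threshold, with 9 left of 0 under the basal label and 4 under the luminal label, and 166 and 100 genes lie outside the axes.

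The study treated cells of both labels, so the log2 changes can be compared between them. The change under the luminal label was above that under the basal label for 8 of the 10 members. The same held for 45.2% of all genes and for 48.3% of those that reached 5 FPKM. The members' median difference was 0.27 beside −0.03 over all genes. Hsph1, at 1.20, was the only member whose difference was over 1, beside 4.41% of all genes in that direction and 2.65% in the other. The difference was 0.84 for Hspb1, 0.53 for Bag3, 0.50 for Hspa1b and 0.45 for Dnajb1. Counting intervals of the ratios did not meet between labels for these 5 genes and for Hspa8, whose difference was 0.10, and met for the other 4 members. Such intervals cover counting error only. They were apart for 36.2% of all genes and for 53% of those that reached 5 FPKM, and 6 of 10 is near the latter share. Most members stood well above 5 FPKM, where intervals are narrower, and the share among genes of their level was not computed. For Hsph1, Hspb1 and Dnajb1 the ratios lay on opposite sides of 1 beyond counting error, as they did for 10.6% of all genes and for 15.1% of those that reached 5 FPKM. Hspa1a was the lowest, at −0.22. The spread between cultures of one label is unknown, so these differences were not tested.

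The labels themselves were compared within each treatment. With DMSO, Hsph1 was past the threshold, lower in the luminal-labelled library, at 11.7 against 35.8 FPKM, a ratio of 0.327 (0.309 to 0.346) and a log2 change of −1.53. It was the 1 member of 10 past it, beside 3.86% of all genes downward and 4.71% upward. In all, 4 members were higher and 6 lower in the luminal-labelled library, with a median of −0.22, beside 52.5% of all genes higher and a median of 0.01. Hsp90aa1 had a log2 difference of −0.76, Hspb1 of −0.57 and Hspa8 of −0.31, while Hspa1a had 0.53 and Hspa1b 0.38.

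With baicalin no member was past the threshold between labels, beside 5.24% of all genes upward and 2.99% downward. The luminal-labelled library was higher for 6 members and lower for 4, with a median of 0.22, beside 45.2% of all genes higher and a median of −0.03. Hsph1 stood at −0.34, with a ratio of 0.780 (0.739 to 0.824). Hspb1, lower in the luminal-labelled library with DMSO, was higher there with baicalin, at a ratio of 1.21 (1.15 to 1.28), and so was Bag3, at 1.34 (1.25 to 1.44). Hspa1b had the highest ratio, 1.86 (1.77 to 1.94). Hsp90aa1 hardly differed between treatments in this respect, with ratios of 0.591 (0.578 to 0.603) with DMSO and 0.612 (0.599 to 0.625) with baicalin. Since the basal markers were higher in the luminal-labelled libraries, as given above, a direction by label is not a direction by cell layer.

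**Figure D4:**
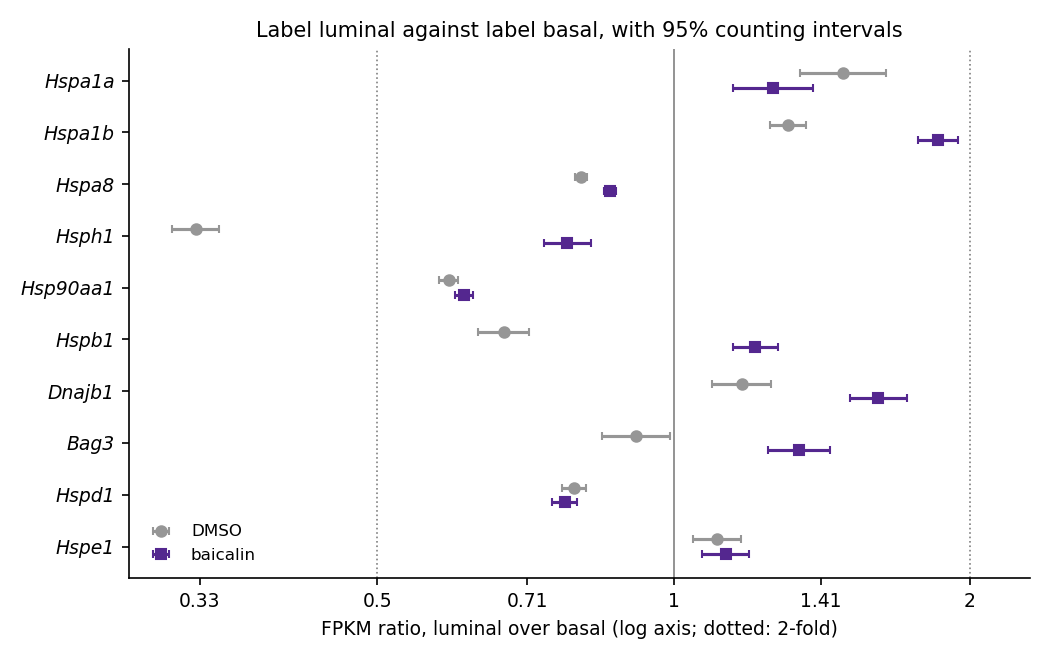
Ratio of FPKM in the luminal-labelled to the basal-labelled library (x axis, log scale) for the 10 genes (y axis), with grey circles for DMSO, purple squares for baicalin, bars for 95% counting intervals and dotted lines for a 2-fold difference. Only Hsph1 with DMSO lies outside the dotted lines, at 0.327, and Hspb1 and Bag3 lie left of 1 with DMSO and right of 1 with baicalin.

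The other chaperones were read from 8 lists, and without the members these held 90 genes, of which 86 were detected in every library. Under the basal label 45 of the 86 were higher with baicalin and 41 lower, and 2 passed the threshold, both upward. Of all genes there, 50.9% were higher, and 2.15% passed upward and 3.33% downward. Under the luminal label 40 of the 86 were higher and 46 lower, and 1 passed, upward. Of all genes there, 45.6% were higher, and 2.37% passed upward and 1.59% downward. The medians of the 86 were 0.02 and −0.01. Medians given below for a single list include any members on it.

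The small heat shock proteins, of which 5 of 9 were measured in all libraries, included a gene past the threshold. Their median log2 changes were 0.20 under the basal and 0.68 under the luminal label, and 0 and 0.09 when the other 4 genes, at or near 0, were counted too. The luminal median of 0.68 is the value of Hspb1, a member. Cryab, for αB-crystallin, rose under the basal label from 95.6 to 246 FPKM, a log2 change of 1.36, and had 83.7 FPKM with DMSO and 146 with baicalin under the luminal label, a log2 change of 0.80. Hspb8, the partner of Bag3, had 37.6 and 52.5 FPKM under the basal label and 43.1 and 76.5 under the luminal label, with log2 changes of 0.47 and 0.81. Hspb6, a small heat shock protein of muscle, went the other way, with 2.15 and 1.91 FPKM under the basal label and 4.36 and 2.57 under the luminal label, a luminal ratio of 0.590 (0.466 to 0.743). It was named after its values were seen. Under the luminal label 4 of the 5 had higher values with baicalin, among them Hspb1, Hspb8 and Cryab. Under the basal label 3 were higher, and Hspb1 and Hspb6 were lower. The basal interval of Hspb6, 0.660 to 1.20 around a ratio of 0.889, took in 1.

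In the HSP70 and HSP110 family of 11 genes none passed the threshold with baicalin, and the medians were −0.16 under the basal and 0.00 under the luminal label. With only the genes that reached 1 FPKM in a library, the basal median was −0.30. Hspa4l, a relative of Hsph1, had 23.5 and 13.8 FPKM with DMSO and baicalin under the basal label and 11.0 and 16.5 under the luminal label, changes of −0.73 and 0.55 that had the same signs as those of Hsph1. With DMSO it was also lower in the luminal-labelled library, by a log2 difference of −1.04. Hspa4, another gene of this HSP110 group, had changes of −0.34 and −0.11.

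The J proteins and nucleotide exchange factors, 20 genes, had medians of −0.01 and 0.06 with none past the threshold. Among them Dnaja1, a J protein of the cytosol, had changes of −0.44 and −0.33 and Dnajb2 of 0.54 and 0.35, on either side of Dnajb1. HSP90 and its co-chaperones, 16 genes, had medians of −0.07 and −0.08 with none past the threshold. There Stip1, the adaptor between HSP70 and HSP90, had 106.6 FPKM with DMSO and 67.1 with baicalin under the basal label and 80.1 and 67.5 under the luminal label, with changes of −0.66 and −0.25. The cytosolic chaperonin TRiC and prefoldin, 14 genes, had medians of −0.13 and −0.08 with none past the threshold, and 10 and 11 genes were lower with baicalin.

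The mitochondrial chaperones and proteases, 19 genes with Hspd1 and Hspe1 among them, had medians of 0.08 and 0.07. Hscb, the J protein of iron-sulfur cluster assembly, rose under the basal label from 4.45 to 16.3 FPKM, a log2 change of 1.66, and had 6.05 and 8.94 FPKM under the luminal label, a change of 0.49. Hspa9, the mitochondrial HSP70, had 169 FPKM with DMSO and 283 with baicalin under the basal label and 116 and 176 under the luminal label. Its changes, 0.74 and 0.60, were opposite in sign to those of Hspd1, which were −0.22 and −0.25. Lonp1, a matrix protease, had changes of 0.85 and 0.32.

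Heat shock factor 1 itself, Hsf1, had 5.35 FPKM with DMSO and 5.79 with baicalin under the basal label and 5.45 and 5.87 under the luminal label, and none of the 5 genes of the heat shock factor list passed the threshold. Of 6 other genes known to respond to misfolded protein, Zfand2a, a proteasome-associated protein induced by arsenite, rose under the luminal label from 13.9 to 32.7 FPKM, a log2 change of 1.18, and had 41.5 and 74.0 FPKM under the basal label, a change of 0.82. Serpinh1, the collagen chaperone HSP47, had changes of −0.33 and 0.09.

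For scale, 3 lists outside the heat shock genes were read in the same way. The targets of NRF2, the factor that answers electrophiles and oxidants, had medians of 1.84 and 1.73, with 7 of 8 genes past the threshold under the basal label and 6 of 8 under the luminal label, all upward. Slc7a11, the cystine importer, rose from 2.73 to 76.4 FPKM and from 2.27 to 35.6, and Hmox1, for heme oxygenase, from 29.7 to 172.5 and from 46.9 to 159.9. The 15 chaperones of the endoplasmic reticulum had medians of −0.06 and −0.16 and none past the threshold. The 11 immediate-early genes had medians of 0.15 and −0.11, with Egr3, chosen here after its value was seen, past the threshold downward under the basal label at −1.02. The heat shock members, with medians of −0.15 and 0.02, lay below the NRF2 targets. The 86 other chaperones, read without the members, had medians of 0.02 and −0.01.

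**Figure D5:**
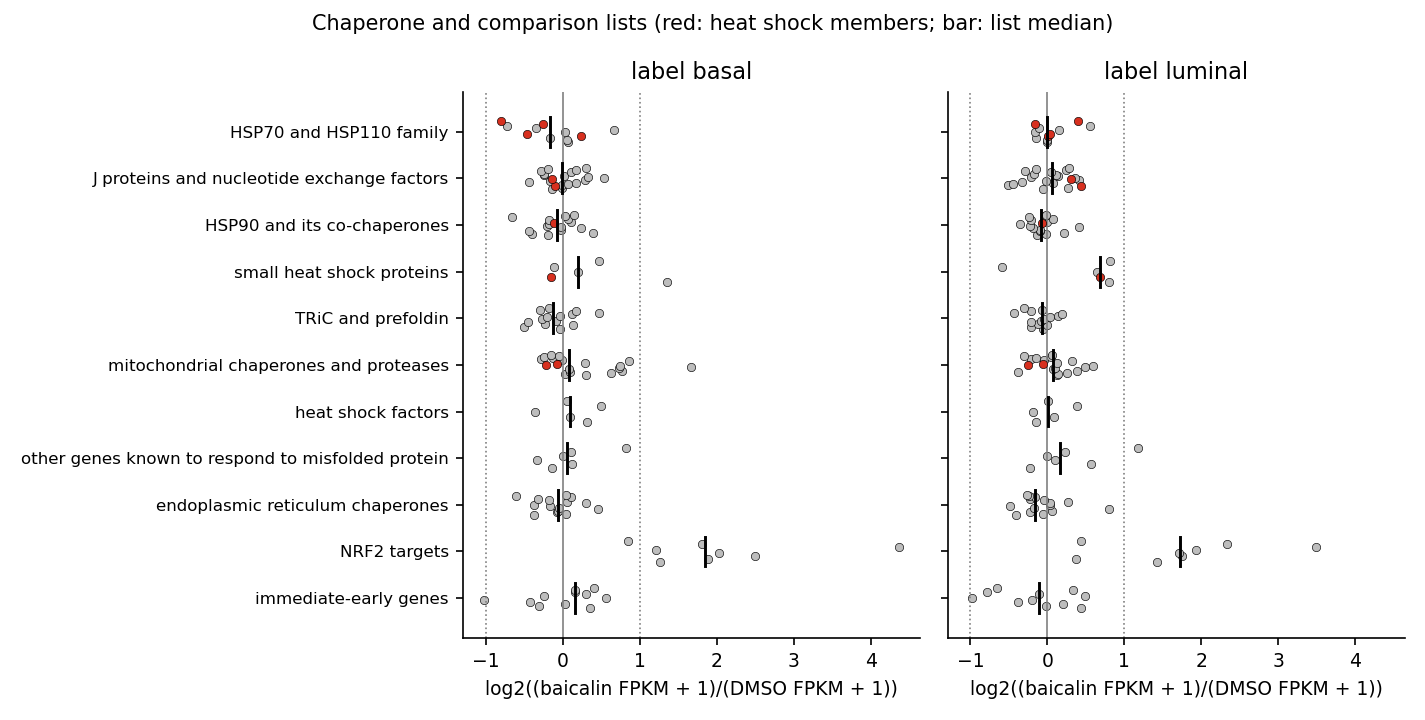
Log2 change with baicalin (x axis) of each gene of 8 chaperone lists and 3 comparison lists (y axis) under the basal label (left) and the luminal label (right), 1 point per gene, red for the heat shock members, with black bars at list medians and dotted lines at the threshold. The red points stay within the threshold, while the NRF2 targets have medians of 1.84 and 1.73.

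Genes with a profile like that of the members were ranked over the 4 libraries by the distance between log2(FPKM + 1) profiles, each centred on its own mean, among 9175 genes. The mean profile of the 10 members was closest to Tbc1d10b, at a distance of 0.014, followed by Zfp710, Ints6, Gps1 and Pon3. The summed Hspa1a and Hspa1b were closest to Sh3kbp1, at 0.021, followed by Serpinh1, Dusp1, Idh1 and Acp5. Single members stood farther from their own mean, from 0.273 for Hspe1 to 0.986 for Hsph1, so the mean profile describes no member closely. With 4 libraries such likeness is a description.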

How the data were processed

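Cells were sorted, cultured in 3D and treated as described, and mRNA was enriched with oligo (dT) beads for stranded libraries. Per the paper's methods, the authors aligned reads with HISAT2 to GRCm38, counted fragments with featureCounts and deposited FPKM. The submitters' processing notes also name Bowtie 0.12.2 and the builds mm8 and GRCm38, with no role given. The strand setting is not given in the sources used here.

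Members and lists were chosen with earlier results of these data known. Changes were log2((FPKM + 1)/(FPKM + 1)) over the 17787 genes detected (FPKM above 0) in every library, called past 1, and no test was made with 1 library per group; such changes understate those of low genes. Gene positions and exon lengths came from GENCODE release M21 on GRCm38. Of low genes, those under 20 fragments, 98.9% to 99.1% fell within 0.1 of a whole fragment, and these fragments gave exact Clopper-Pearson 95% intervals on ratios and exact Poisson intervals on levels. No count test was run. Near-identical copies matched over at least 200 bases at 95% identity or more (blastn). All members were named, and in each list the genes with the largest changes in either direction among those that reached 5 FPKM in a library, though not all are given. Hspb6 and Egr3 were added. Alternatives changed the pseudocount, the filter, the scaling, the threshold and the treatment of Hspa1a and Hspa1b. The computation was tested on simulated data. Scripts ran in Python 3.11.15 with pandas 2.3.3, numpy 2.4.6 and scipy 1.17.1, and plots in matplotlib 3.10.9.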

Additional observations from a re-analysis of the deposited data

Results flagged for a closer look

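The changes of 3 members with baicalin went in opposite directions under the basal and luminal labels by more than counting error, with the luminal change above the basal one in each. The difference in log2 change was 1.20 for Hsph1, 0.84 for Hspb1 and 0.45 for Dnajb1. Opposite directions beyond counting error, in either order, were found for 10.6% of all genes, and for 15.1% of those that reached 5 FPKM in a library. The share with the luminal change above the basal one was not computed. With 1 library per group the difference was not tested. Summed basal markers went from 1761 to 479 FPKM with baicalin under the basal label and from 5404 to 7199 under the luminal label. Of the 10 basal markers, 1 was higher with baicalin under the basal label and 5 under the luminal label. Summed luminal markers went from 4011 to 2476 FPKM under the basal label and from 1305 to 1007 under the luminal label.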

How the results depend on the processing

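The counts of members past the threshold held under a pseudocount of 0.1 FPKM or none, values rescaled to TPM, centring on the median ratio, both other filters and summing Hspa1a with Hspa1b. A threshold of 0.5 gave 1 member with baicalin under the basal label (Hsph1, lower), 1 under the luminal label (Hspb1, higher), 4 between labels with DMSO, 3 between labels with baicalin and 3 for the difference in response. The shares of all genes past 0.5 in either direction were 19.3%, 16.3%, 26.5%, 24.8% and 23.4% in the same order, and were 24.7%, 20.6%, 32.5%, 29.3% and 25.8% of the genes that reached 5 FPKM. A threshold of 2 gave 0 with DMSO between labels and 0 for the difference in response. Both medians with baicalin moved by less than the members' counting intervals. Of 345 recomputed member values, 1 changed sign, the response difference of Hspd1, which was −0.03 and became 0.01 with TPM, and 327 stayed within the counting interval. Rescaling to TPM gave 14 of those that did not, and moved the members' luminal-against-basal changes with DMSO by −0.16 to −0.08 (Dnajb1 from 0.22 to 0.12, Hspe1 from 0.14 to 0.04). Several list medians moved as well. The basal median of the HSP70 and HSP110 family went from −0.16 to −0.30 with the filter at 1 FPKM. The luminal median of the small heat shock proteins went from 0.68 to 0.80 with TPM, and likewise with a pseudocount of 0.1 FPKM or none. With TPM the median of TRiC and prefoldin between labels with DMSO went from −0.23 to −0.35. The difference in response, and the shares among genes that reached 5 FPKM or past other thresholds, were added after seeing the data. In that set 5.03% of genes passed downward under the basal label against 3.33% of all, 3.93% upward under the luminal label against 2.37%, and 5.9% downward between labels with DMSO against 3.86%. No replicate could be left out, and no paired analysis was possible because the groups share fewer than 2 replicate numbers. A model of label plus treatment, which would leave 1 residual degree of freedom, was not run. Between 662 and 48804 fragments lay behind a member in a library, so counting error was small, and the spread between cultures is unknown.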

Other observations

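Between labels, chaperones other than the members were mostly lower in the luminal-labelled library, in 57 of 86 genes with DMSO and in 58 with baicalin. Their medians were −0.16 and −0.13, beside 0.01 and −0.03 over all genes. Of all genes, 52.5% and 45.2% were higher in the luminal-labelled library. Past the threshold were 3 and 1 of the 86, all downward. Of all genes, 3.86% and 2.99% passed it downward and 4.71% and 5.24% upward. The chaperonin TRiC and prefoldin were lower in 13 of 14 genes in each treatment, with medians of −0.23 and −0.15. Hspa4l, Chordc1, a co-chaperone of HSP90, and Zfand2a passed the threshold with DMSO, at −1.04, −1.06 and −1.52, and Zfand2a passed it with baicalin, at −1.16.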
